A study of Mus musculus with 17 samples.

Results

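The 10 circadian clock genes described here were Arntl, Clock, Per2, Per3, Cry1, Cry2, Dbp, Tef, Nr1d1 and Nr1d2, chosen by name out of 55450 genes in the count lists, and all 10 were among the 17615 genes with enough reads to be tested. RNA from the hippocampi of male and female C57BL/6J mice, aged 2 to 3 months at surgery, was sequenced in 17 libraries in 3 groups, and since the labels do not tie each library to its own mouse, p-values measure the spread between libraries. Epilepsy had been induced with kainic acid, which excites neurons through glutamate receptors, given in the right amygdala, and the control mice were sham controls. All groups then received AAV9 vectors in the right ventral hippocampus, carrying a doxycycline-inducible dCas9-VP64 transcriptional activator and rtTA-t2a-tdTomato under the Camk2a promoter, which restricts expression largely to excitatory neurons, and doxycycline in their food for 2 weeks. The guide RNA was sgLacZ, which targets a bacterial gene, in the 5 control sgLacZ and 6 epileptic sgLacZ libraries, and sgKcna1, which targets the promoter of the potassium channel gene Kcna1, in 6 epileptic sgKcna1 libraries. A control group with sgKcna1 was not part of the libraries used here. The time of day at which the hippocampi were collected is given in neither the labels nor the methods, and levels of these genes depend on it, so a difference in collection time between groups cannot be told apart from the groups. In whole hippocampus, fewer cells of a type and less RNA per cell cannot be told apart either.

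The mammalian clock is a transcriptional feedback loop that runs in most cells. ARNTL (also called BMAL1) and CLOCK form a heterodimer that binds E-box motifs and activates the Per, Cry, Nr1d and Dbp genes. PER and CRY proteins return to the nucleus and inhibit that heterodimer, whereas NR1D1 and NR1D2 (REV-ERBα and REV-ERBβ) repress Arntl, and the PAR bZIP factors DBP and TEF act on D-box motifs in output genes and in Per genes. Because of this wiring, Arntl and its targets peak at opposite phases of the day in most tissues, including the hippocampus.

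To show the motifs through which this loop acts, the 250 bases before the annotated start (RefSeq, GRCm38.p6, the assembly called mm10) were searched on both strands for the E-box CACGTG, the E-box-like CACGTT, the D-box TTATGTAA and the ROR element ANTNGGTCA, where N is any base. A window was at hand for 9 of the 10 genes. CACGTG lay in the windows of 2 genes, Cry1 and Tef, CACGTT in those of 3, Cry1, Cry2 and Nr1d1, TTATGTAA in that of 1, Per3, and ANTNGGTCA in none. Of 32851 windows in the whole table, 6.02% held CACGTG, 3.85% CACGTT, 0.819% TTATGTAA and 1.87% ANTNGGTCA. Some genes had more than 1 window, and the gene counts take in all of them, whereas the percentages are per window, so they are not on 1 scale. Bases outside these windows were not searched, so a gene with no match here may hold the motif elsewhere. A match is a stretch of letters, not a site that was measured. Printed with matches in capitals (AACGTG is CACGTT on the other strand) are Per3 for its pair of D-boxes, Cry1 for its adjoining E-box and E-box-like motif, and Nr1d1, the clock gene that passed the test in these data, each on its own minus strand.
Per3 (chr4:151044666-151044915, minus strand): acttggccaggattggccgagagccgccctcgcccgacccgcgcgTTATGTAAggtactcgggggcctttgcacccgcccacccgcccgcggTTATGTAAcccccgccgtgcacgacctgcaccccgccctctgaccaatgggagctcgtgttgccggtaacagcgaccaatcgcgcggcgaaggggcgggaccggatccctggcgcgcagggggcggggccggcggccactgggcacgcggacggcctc
Cry1 (chr10:85185055-85185304, minus strand): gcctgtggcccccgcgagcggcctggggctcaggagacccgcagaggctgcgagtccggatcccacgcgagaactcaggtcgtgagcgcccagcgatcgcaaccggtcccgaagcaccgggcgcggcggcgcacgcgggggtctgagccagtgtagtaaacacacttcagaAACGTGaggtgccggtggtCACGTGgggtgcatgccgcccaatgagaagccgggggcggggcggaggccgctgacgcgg
Nr1d1 (chr11:98775378-98775627, minus strand): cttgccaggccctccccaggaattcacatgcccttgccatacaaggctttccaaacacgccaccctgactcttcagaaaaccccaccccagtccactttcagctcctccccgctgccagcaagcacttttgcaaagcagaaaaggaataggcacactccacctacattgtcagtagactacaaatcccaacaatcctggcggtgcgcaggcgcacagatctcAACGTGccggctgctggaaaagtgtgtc

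Libraries held 11839240 to 28311328 reads counted in genes. Levels are given as CPM, counts per 1000000 reads of the TMM-normalised library size, on which 3 reads equal 0.106 to 0.253 CPM, and the 5 control values of a gene are listed in the order of replicates 13, 14, 15, 16 and 23. One library stood apart from the other 16. Epileptic sgKcna1 replicate 12 was the shallowest, had 41.5% unmapped reads against 11.0% to 27.7% in the others, and held the lowest Per3, Cry2, Dbp, Tef, Nr1d1 and Nr1d2 and the highest Clock of all 17, so results are given with and without it. Kcna1, the targeted gene, was at 13.9 to 29.5 CPM in 5 of the 6 epileptic sgKcna1 libraries and at 133 in replicate 12, against 16.9 to 56.7 in epileptic sgLacZ and 25.5 to 44.0 in control sgLacZ. The difference between the libraries labelled sgKcna1 and epileptic sgLacZ was 0.32 ± 0.47 (log2 fold change ± SE, edgeR quasi-likelihood test, adjusted p = 0.706) and turned to -0.65 without replicate 12. Neuronal markers summed to 5020 to 6291 CPM in all libraries, and 4 of 5 markers of the suprachiasmatic nucleus and hypothalamus, where the master clock lies, averaged over 1 CPM, led by Vip at 25.9 CPM, which hippocampal interneurons also express. The 6 astrocyte markers summed to 2005 to 2365 CPM in control sgLacZ and 2291 to 3039 in epileptic sgLacZ, with 2 of them called higher, beside 7.26% of all tested genes. The 6 oligodendrocyte markers summed to 6523 to 9411 and 4941 to 7248, and the 6 choroid plexus markers to 1201 to 12530 and 4426 to 11460, with 0 called in either list by edgeR. Of the 8 other lists of cell markers, 1 marker each of neurons, hippocampal principal cells and microglia was called higher, beside the same 7.26%. In ependyma 1 was called lower, beside 3.76% of all tested genes, and 0 were called in endothelium, thalamus, striatum and suprachiasmatic nucleus. The median log2 fold change was -0.02 over the neuronal markers, 0.12 over those of hippocampal principal cells, -0.13 over microglia and -0.29 over ependyma. Principal cell markers summed to 1137 to 1442 CPM in control sgLacZ and 1090 to 1339 in epileptic sgLacZ. The part of these cells in the clock gene results was not tested.

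With Dbp and Nr1d1 set aside, an output gene and 2 repressors were the most abundant members per unit of exon length. In control sgLacZ libraries, Tef, a PAR bZIP activator, stood at 42.2 ± 2.28 CPM per kilobase (mean ± SD, n = 5), Nr1d2 at 14.6 ± 1.28 and Cry2 at 13.3 ± 0.464. Clock followed at 8.12 ± 0.260, then Arntl at 6.86 ± 0.932, Cry1 at 4.37 ± 0.691, Per2 at 2.67 ± 0.409 and Per3 at 1.64 ± 0.104. Nr1d2 and Cry2 differed by less than the sum of their SDs, and every other neighbouring pair in this order differed by more. Dbp and Nr1d1 have no firm place in this order, because most reads over them lay in a part shared with a neighbouring gene and were left out of the count. From the unshared reads alone, over the whole exon length, Dbp already stood at 15.1 ± 3.04, beside Nr1d2, and Nr1d1 at 7.67 ± 1.98.

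The first comparison, epileptic sgLacZ against control sgLacZ, asks how kainic acid epilepsy altered the hippocampal transcriptome. Nr1d1 alone of the 10 genes passed the test, higher by 1.23 ± 0.31 (log2 fold change ± SE, adjusted p = 0.0346), beside a background of 11.0% of all tested genes called in either direction and 7.26% called higher. Dbp was next in size at 0.85 ± 0.40 (adjusted p = 0.139). Clock, at -0.35 ± 0.17 (adjusted p = 0.144), was the one gene of the 10 whose libraries did not overlap between the groups. Of all 17615 tested genes, 352 did not overlap with epileptic sgLacZ higher and 422 with it lower. The remaining 7 lay between 0.05 and 0.32. At an unadjusted p under 0.05, 3 of the 10 were called (Nr1d1, Dbp and Clock), beside 34.7% of all genes. The median over the 10 genes was 0.24, against 0.02 over all tested genes.

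**Figure D1:**
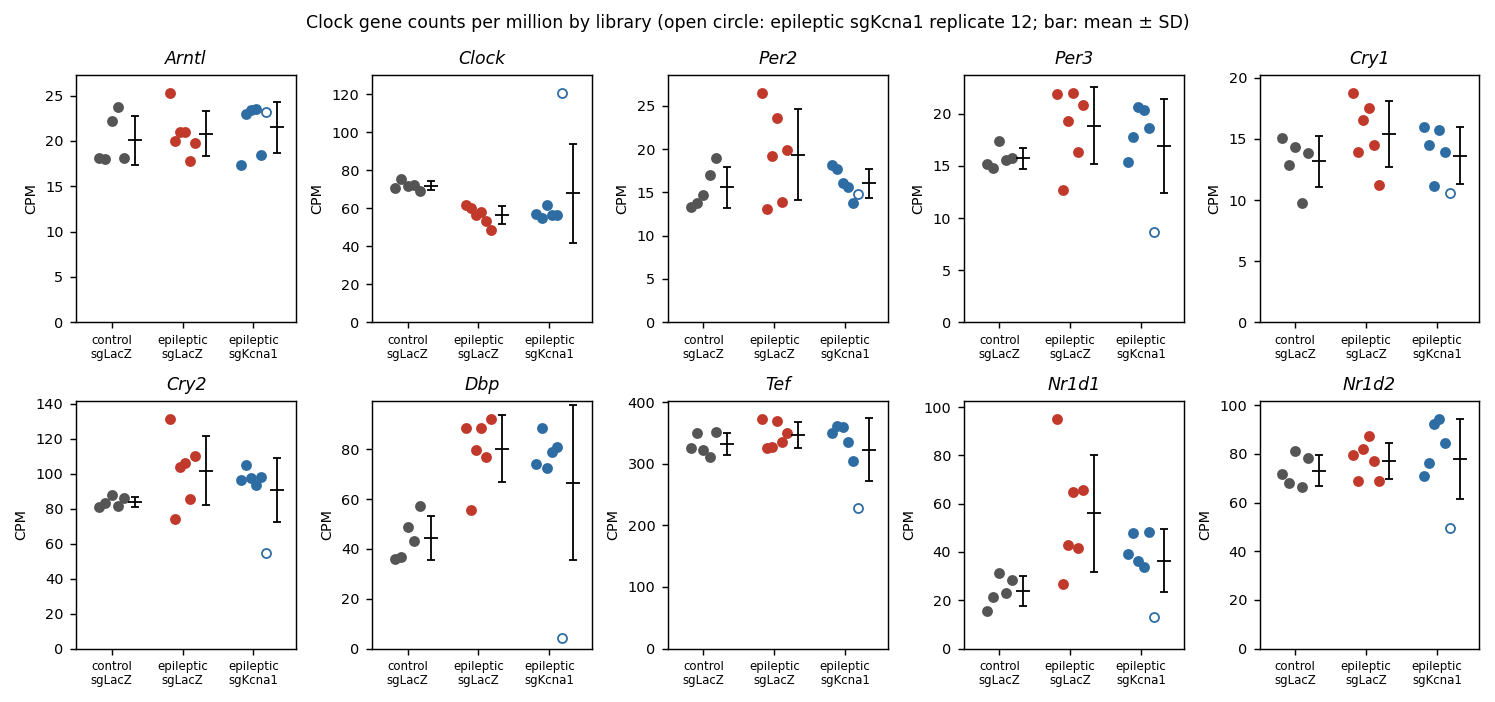
CPM of the 10 clock genes (y axis, from 0) in each library of the 3 groups (x axis), with the mean ± SD as a bar and epileptic sgKcna1 replicate 12 as an open circle. Clock in the 6 epileptic sgLacZ libraries (48.4 to 61.8 CPM) sits below all 5 control sgLacZ libraries (69.2 to 75.3), Dbp and Nr1d1 sit higher with overlap, and replicate 12 leaves its group in most panels.

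Nr1d1, the heme-binding repressor of Arntl (gene at chr11:98767932-98775377), stood at 15.5, 21.4, 31.3, 23.1 and 28.5 CPM in control sgLacZ. In epileptic sgLacZ the lowest library held 26.5, the median was 53.8 and the highest, replicate 4, reached 95.0. All but 1 of the 6 epileptic sgLacZ libraries exceeded every control, and replicate 5 lay inside the control range. The call did not hold without sgLacZ replicate 4, 7 or 9 or control replicate 13, 14, 16 or 23 (adjusted p from 0.0529 to 0.0947), and without replicate 12 of the third group the adjusted p was 0.0070.

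Nr1d2, its paralogue, held 71.6, 68.0, 81.2, 66.3 and 78.1 CPM in control sgLacZ and 68.7 to 87.4 in epileptic sgLacZ, with a median of 78.4. The difference was 0.08 ± 0.13 (adjusted p = 0.685), and 2 of 6 epileptic libraries exceeded every control. Whether the fold changes of Nr1d1 and Nr1d2 differed was not tested.

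Dbp, the D-box activator whose transcript swings widely over the day in liver and brain (gene at chr7:45705100-45710203), stood at 35.9, 36.7, 48.9, 43.3 and 57.3 CPM in control sgLacZ. Epileptic sgLacZ libraries held 55.8 at the lowest, 84.1 at the median and 92.1 at the highest. The groups overlapped through 1 control library, replicate 23, and 1 epileptic library, replicate 5. Left out of the fit, replicate 12 of the third group moved the adjusted p from 0.139 to 0.0059 with the fold change at 0.85, since all 3 groups share 1 estimate of the spread in the fit.

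Tef held 325, 350, 322, 311 and 351 CPM in control sgLacZ and 326 to 372 in epileptic sgLacZ, a difference of 0.06 ± 0.10 (adjusted p = 0.694). It was the steadiest member in epileptic sgLacZ, with a coefficient of variation of 6.00%, where Nr1d1 had 43.1% and the median gene with at least 10 CPM had 15.8%.

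The 2 genes of the positive arm gave different values. Arntl held 18.1, 18.02, 22.2, 23.7 and 18.2 CPM in control sgLacZ and 17.8 to 25.3 in epileptic sgLacZ (0.05 ± 0.12, adjusted p = 0.777). Clock, its partner, held 70.5, 75.3, 71.8, 72.0 and 69.2 CPM in control sgLacZ, and 48.4 at the lowest, 57.1 at the median and 61.8 at the highest in epileptic sgLacZ. All 6 epileptic libraries were below all 5 controls, as in 2.40% of the tested genes. Clock passed the threshold without replicate 12 (adjusted p = 0.0064) and when the third group was left out (adjusted p = 0.0234).

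Of the negative arm, Per2 held 13.3, 13.8, 14.7, 17.1 and 19.0 CPM in control sgLacZ and 13.1 to 26.5 in epileptic sgLacZ (0.32 ± 0.17, adjusted p = 0.183). Per3, a non-essential period gene, held 15.2, 14.8, 17.4, 15.5 and 15.7 against 12.7 to 22.0 (0.26 ± 0.18, adjusted p = 0.314). Cry1 held 15.1, 12.9, 14.3, 9.73 and 13.8 against 11.2 to 18.8 (0.22 ± 0.16, adjusted p = 0.310). For Per2 and for Per3, 4 of 6 epileptic sgLacZ libraries exceeded every control and 1 lay below every control, and for Cry1 3 of 6 exceeded every control. Cry2 held 81.0, 83.4, 87.8, 81.6 and 86.2 CPM in control sgLacZ and 74.1 at the lowest, 105 at the median and 131 at the highest in epileptic sgLacZ (0.28 ± 0.15, adjusted p = 0.189). The Cry2 controls were tightly grouped, with a coefficient of variation of 3.49%, and the epileptic libraries spread to either side of them at 19.6%.

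**Figure D2:**
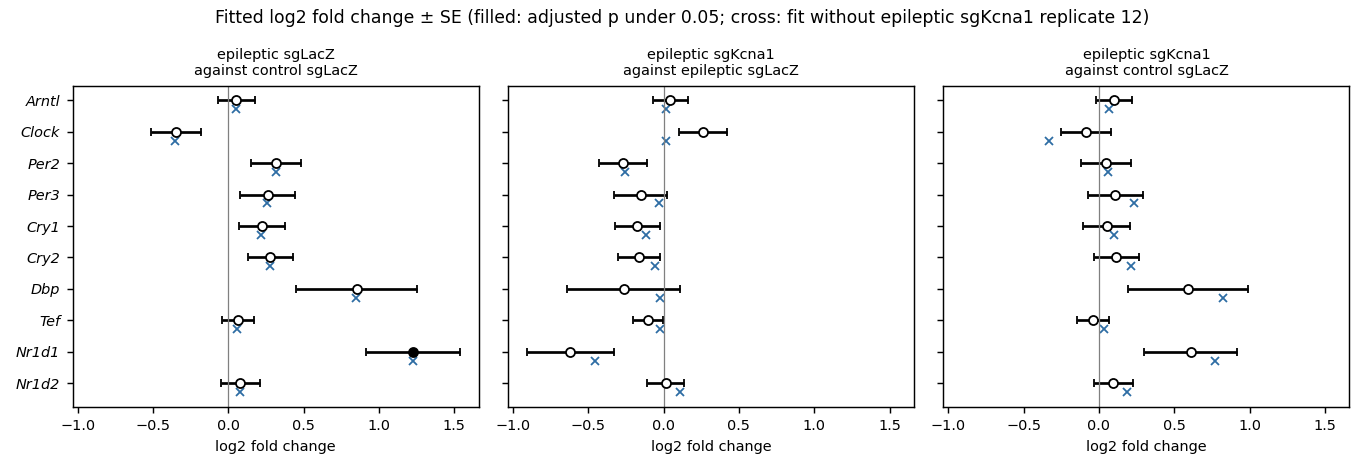
Fitted log2 fold change (x axis) with its SE for each clock gene (y axis) in the 3 comparisons, filled where the adjusted p was under 0.05, with a cross for the fit without epileptic sgKcna1 replicate 12. The 1 filled point is Nr1d1 at 1.23 in epileptic sgLacZ against control sgLacZ, and leaving out replicate 12 moves Clock in the other comparisons to 0.02 and -0.33.

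The second comparison, libraries labelled sgKcna1 against epileptic sgLacZ, asks whether the guide to Kcna1 altered the epileptic transcriptome. No clock gene passed the test, beside 0% of all 17615 tested genes with edgeR. At an unadjusted p under 0.05, 1 of 10 clock genes was called, Nr1d1, lower by 0.62 on the log2 scale (SE 0.29, unadjusted p = 0.0465, adjusted p = 0.255), beside 19.2% of all genes, and DESeq2 called 143 genes at an adjusted p under 0.05, no clock gene among them. Nr1d1 held 13.0 at the lowest, 37.7 at the median and 48.2 CPM at the highest in the libraries labelled sgKcna1, and these lay within the span of the epileptic sgLacZ libraries except for replicate 12. Without replicate 12 the difference was -0.46 (adjusted p = 0.374). Clock was at 55.0 to 61.6 CPM in 5 of these libraries and at 121 in replicate 12, so its fold change of 0.26 ± 0.16 became 0.02 without that library. Dbp was at 72.6 to 88.7 CPM in the same 5 and at 4.29 in replicate 12, so its difference of -0.27 ± 0.38 became -0.03.

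Against control sgLacZ, the libraries labelled sgKcna1 gave no call among the 10 clock genes or among all genes with edgeR, beside 0% of the background. At an unadjusted p under 0.05, 0 of the 10 were called, beside 6.77% of all genes, and DESeq2 called 39 genes, none a clock gene. Nr1d1 was at 0.61 ± 0.31 (adjusted p = 0.764) and Dbp at 0.59 ± 0.40 (adjusted p = 0.781), and in both, 5 of 6 libraries exceeded every control while replicate 12 was below every control. Without replicate 12, Dbp was higher by 0.82 and passed the threshold (adjusted p = 0.0307), Nr1d1 was at 0.77 (adjusted p = 0.159) and Clock at -0.33 (adjusted p = 0.0624). Both epileptic groups were compared with the same 5 control libraries, so their values stand side by side and are not independent of each other.

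The counts of Dbp and Nr1d1 rest on part of each gene. At its 3′ end Dbp overlaps Sphk2, a gene on the opposite strand, over 741 bases (chr7:45709463-45710203), and Nr1d1 overlaps Thra, the thyroid hormone receptor α gene, over 1075 bases (chr11:98767932-98769006). Reads that fell in a part shared by 2 genes were ambiguous in the unstranded counts and were left out, so the CPM values count only the rest of each gene. Adding up the counts of the 2 strands gives each read back to both genes and shows how many were left out. Dbp had 2.72 times and Nr1d1 10.6 times as many reads by that sum, whereas the 8 other clock genes had at most 1.05 times.

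The differences in the unshared and the shared part of Dbp were of opposite sign, neither past the threshold. The shared part held 178, 146, 123, 115 and 148 CPM in control sgLacZ, and 54.5 at the lowest, 83.1 at the median and 162 at the highest in epileptic sgLacZ, a difference of -0.55 ± 0.21 (adjusted p = 0.0824) where the unshared part differed by 0.85. In all, 4 of the 6 epileptic sgLacZ libraries lay below every control in the shared part, and replicate 5 lay within the controls. With the strand sum, Dbp differed by -0.08 (adjusted p = 0.695). Replicate 12 of the sgKcna1 group, with 4.29 CPM in the unshared part, held 123 CPM in the shared part, within the range of its group. The shared reads include any from Sphk2, which cannot be told apart from those of Dbp.

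For Nr1d1 the shared part, which includes reads of the abundant Thra, held 335 to 414 CPM in control sgLacZ and 340 to 449 in epileptic sgLacZ, a difference of 0.12 ± 0.22 (adjusted p = 0.718). With the strand sum, Nr1d1 differed by 0.21 (adjusted p = 0.510) and lost the call. Of all reads over Nr1d1, those of Thra in the shared part included, only 4.43% to 7.05% in control sgLacZ and 5.85% to 21.8% in epileptic sgLacZ were unshared. How many of the reads from Nr1d1 itself were left out is not known. Replicate 12 of the sgKcna1 group held 136 CPM in the shared part, against 412 to 535 in the others of its group.

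The same split was present across the genome. In 640 other genes that overlap an opposite-strand neighbour tail to tail, the median share of unshared reads was 47.0% to 51.4% in control sgLacZ, 50.9% to 69.0% in epileptic sgLacZ and 53.8% to 58.2% in the sgKcna1 group, with 40.5% in replicate 12. These values ordered the libraries almost as the unshared share of all reads over Dbp did, from 3.38% in replicate 12 through 16.8% to 28.5% in control sgLacZ to 61.9% in epileptic sgLacZ replicate 4 (Pearson's r = 0.99, Spearman's rho = 0.98, n = 17, permutation adjusted p = 3e-05 for both, and r = 0.98 without the 2 libraries farthest from the median). This median, the unshared share of a library, was chosen after the Dbp counts had been seen, and by its construction it is higher in a library whose reads of these genes lie further from the overlapping 3′ ends.

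**Figure D3:**
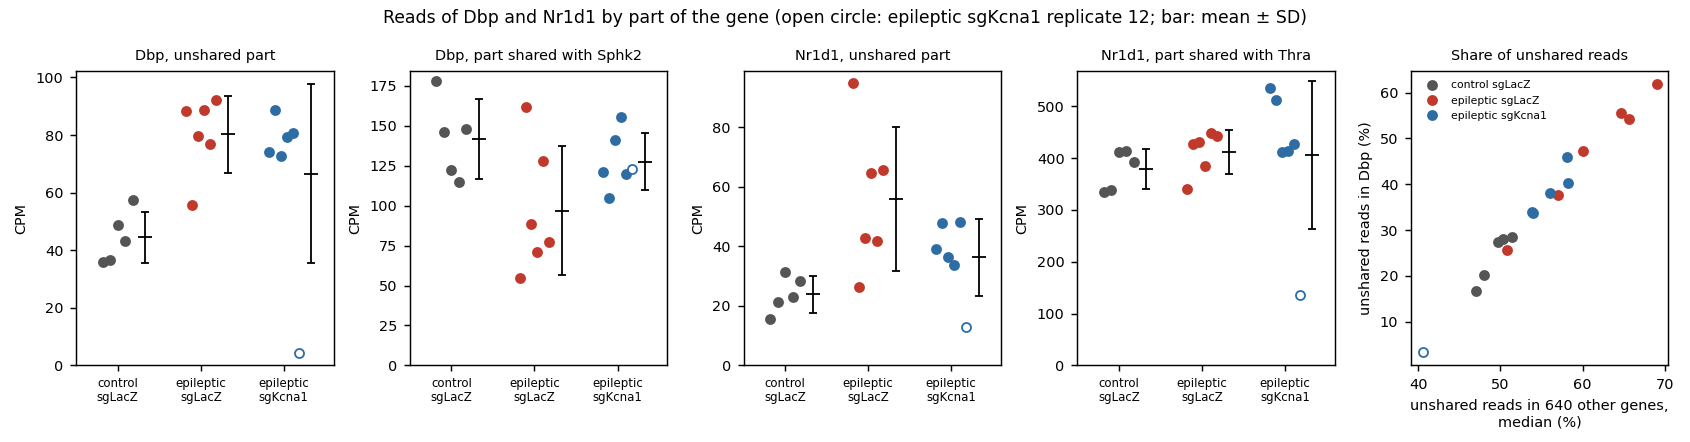
The first 4 panels plot CPM (y axis, from 0) of the unshared and shared parts of Dbp and Nr1d1 in each library by group (x axis), with mean ± SD bars and epileptic sgKcna1 replicate 12 open, and the last plots the percentage of all reads over Dbp that were unshared (y axis) against the median over 640 other overlapping genes (x axis). Dbp is higher in the unshared part and lower in the shared part of most epileptic sgLacZ libraries, and in the last panel the 17 libraries lie near 1 line from 3.38% to 61.9%.

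The unshared share was also set beside the level of each clock gene. Most reads over Nr1d1 and Dbp lay in a part shared with a neighbour, and almost none over the others. Over the 17 libraries and 12 relations tested, log2 CPM of Nr1d1 had r = 0.98 and rho = 0.99 with it (adjusted p = 3e-05 for both), and r = 0.96 without the 2 farthest libraries. The percentage of reads over Nr1d1 that were unshared had r = 0.79 and rho = 0.80 (permutation adjusted p = 4.8e-05 and 0.00044). Its r was 0.91 within epileptic sgLacZ, 0.0025 within the libraries labelled sgKcna1 and 0.61 in that group without replicate 12. Cry2, the CRY repressor with 1.03 times as many reads by strand sum, had r = 0.91 and rho = 0.92 (adjusted p = 3e-05 for both, r = 0.86 without the 2 farthest). Per3 had r = 0.82 and rho = 0.83 (adjusted p = 6e-05 and 9.6e-05, r = 0.72 without them), Per2 had r = 0.73 and rho = 0.65 (adjusted p = 0.00129 and 0.00956, r = 0.66), and Clock had r = -0.76 and rho = -0.75 (adjusted p = 0.000257 and 0.00118, r = -0.84). Within the 6 epileptic sgLacZ libraries the values of r were 0.99 for Nr1d1, 0.97 for Cry2, 0.96 for Per3, 0.93 for Per2 and -0.11 for Clock, and within the 6 libraries labelled sgKcna1 they were 1.00, 0.98, 0.86, 0.31 and -0.98. Without replicate 12, the 5 others of that group gave 0.97 for Nr1d1, 0.68 for Cry2, -0.50 for Per3, -0.09 for Per2 and -0.69 for Clock. Dbp had r = 0.77 and rho = 0.95, Tef 0.65 and 0.50, Cry1 0.53 and 0.57 and Nr1d2 0.53 and 0.50 (adjusted p from 3e-05 to 0.0482), with r at 0.88, 0.34, 0.24 and 0.28 without the 2 farthest. Arntl had r = 0.13 and rho = 0.11 (adjusted p = 0.622 and 0.681, r = 0.08). The permutations, here and for the Dbp percentage above, shuffled libraries across groups. The unshared share differs between groups, so these p-values also take in group differences and do not measure a relation within groups. CPM of Nr1d1 and Dbp counts unshared reads alone, so it can follow this share by construction.

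With the unshared share as a covariate in the fit across all genes, Nr1d1 differed between epileptic and control sgLacZ by -0.10 ± 0.13 (adjusted p = 0.870), Dbp by -0.33 ± 0.39 (adjusted p = 0.867) and Clock by 0.08 ± 0.16 (adjusted p = 0.930), and 0 of 17615 genes were called. Control and epileptic sgLacZ barely overlapped in this share, at 47.0% to 51.4% and 50.9% to 69.0%. The share is therefore confounded with this contrast, and they cannot be fully told apart in this fit. It also varied within epileptic sgLacZ, and the sgKcna1 libraries other than replicate 12 lay inside that range, at 53.8% to 58.2%. With the percentage of unmapped reads as the covariate instead, Nr1d1 was higher by 0.63 ± 0.13 (adjusted p = 0.0301). What sets the unshared share was not tested. In genes with a strand sum over 2 times the unstranded count, 232 of 1072 (21.6%) were called, 217 of these higher, against 1530 of 15349 (9.97%) in genes with a strand sum of at most 1.2 times.

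Of 18 other genes of the clock pathway, 0 rose and 2 fell in epileptic sgLacZ against control sgLacZ, beside 3.76% of all genes called lower, and their median log2 fold change was 0.03 against 0.02 over all genes. Csnk1e, casein kinase 1ε, which phosphorylates PER proteins, fell by 0.58 on the log2 scale (SE 0.16, adjusted p = 0.0398), from 175 to 216 CPM in control sgLacZ to 84.6 to 196 in epileptic sgLacZ, with a median of 124. Usp2, a deubiquitinase that acts on clock proteins, fell by 0.44 (SE 0.14, adjusted p = 0.0497), from 117 to 158 CPM to 76.3 to 119. In both genes 5 of 6 epileptic sgLacZ libraries were below every control, and replicate 5 was the exception. Neither call held without sgLacZ replicate 4, 6, 7 or 9, sgKcna1 replicate 10 or any 1 of the 5 controls, and only Csnk1e held with RLE scaling, with no filter on low counts or without sgKcna1 replicate 1, 2, 3 or 11. Per1, Btrc and Fbxl21 were higher with an unadjusted p under 0.05, a cut-off that 34.7% of all genes met in either direction, but did not pass. With the unshared share or the unmapped percentage as a covariate, 0 of the 18 were called. In the libraries labelled sgKcna1, 0 of 18 passed against either group by edgeR or DESeq2. Against epileptic sgLacZ 5 had an unadjusted p under 0.05, beside 19.2% of all genes, and against control sgLacZ 2 did, beside 6.77%. The log2 fold changes had medians of 0.02 against epileptic sgLacZ and 0.06 against control sgLacZ. The smallest adjusted p against epileptic sgLacZ was 0.213, shared by Usp2 (0.47 ± 0.13), Csnk1e (0.47 ± 0.16) and Rora (0.48 ± 0.17), a nuclear receptor that activates Arntl.

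Glucocorticoids reset peripheral clocks, so 12 genes that respond to them were read beside the members. With edgeR 0 passed the test in any of the 3 comparisons, taken as epileptic sgLacZ against control sgLacZ, sgKcna1 against epileptic sgLacZ and sgKcna1 against control sgLacZ. In that order 3, 4 and 1 of them had an unadjusted p under 0.05, beside 34.7%, 19.2% and 6.77% of all genes. DESeq2 called 1, 1 and 0, beside 3686, 143 and 39 of all genes. Tsc22d3 (GILZ), a transcriptional target of the glucocorticoid receptor, had the smallest adjusted p, 0.0593, in epileptic sgLacZ against control sgLacZ at -0.29 ± 0.10. Without sgKcna1 replicate 12, 4 of the 12 were called in that comparison, Tsc22d3 (adjusted p = 0.0321), Nfkbia (0.0310), an inhibitor of NF-κB, and Mt2 (0.0406), a metallothionein, lower, and Plin4 (0.0291), a perilipin, higher. That fit called 4777 of all genes, against 1940 with all libraries. Without sgLacZ replicate 5, 3 were called, beside 5526 of all genes. With all libraries, Tsc22d3 lay at 65.6 to 94.3 CPM in epileptic sgLacZ and at 88.2 to 98.3 in control sgLacZ, with 1 of 6 overlapping the controls.

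Arntl was then set beside the genes it activates, library by library. The log2 ratio of Dbp to Arntl was 0.87 to 1.66 in control sgLacZ, 1.48 to 2.22 in epileptic sgLacZ, and 1.63 to 2.13 in the sgKcna1 group except for -2.44 in replicate 12. For a pair without shared reads, the log2 ratio of Nr1d2 to Arntl was 1.48 to 2.11, 1.65 to 2.12 and 1.10 to 2.19, with overlapping groups. Across the 17 libraries Arntl gave no relation that passed with any of Per2, Per3, Dbp, Tef, Nr1d1 or Nr1d2. Pearson's r ranged from -0.11 for Dbp and Tef to 0.37 for Per2, and Spearman's rho from 0.03 for Tef to 0.38 for Per3, with permutation adjusted p of 0.759 for each r and from 0.615 to 0.905 for rho over the 6 relations. Without the 2 libraries farthest from the Arntl median r ran from -0.22 to 0.26. Within the 6 epileptic sgLacZ libraries all 6 values of r were positive, from 0.31 to 0.79, with the smallest exact permutation p of 0.05 for Per2, and within the 6 libraries labelled sgKcna1 they ran from -0.39 to 0.01. With the sum of both strand counts, which adds reads of Sphk2, r of Arntl with Dbp was -0.49 (permutation adjusted p = 0.140). No negative relation of Arntl with these genes passed the test with 17 libraries.

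The members were then set beside each other, and the pairs named are those of highest and lowest r. After subtracting group means from log2 CPM, Cry2 and Nr1d1 had r = 0.93, Cry2 and Per3 0.92, Dbp and Tef 0.87 and Per3 and Nr1d2 0.86 over 17 libraries, and Clock had -0.96 with Dbp. Without replicate 12 these became 0.88, 0.80, 0.34, 0.65 and -0.43, so the first 2 moved least. The pairs of Dbp with Tef and with Clock rested in good part on that library. Other Dbp pairs did not, as Dbp had 0.78 with Nr1d1 and 0.84 with Cry2 in all 17, and 0.83 and 0.69 without replicate 12. Without it, Cry1 had r of only 0.11 to 0.35 with Per2, Per3, Cry2, Dbp, Tef, Nr1d1 and Nr1d2, and Nr1d2 had 0.11 with Tef and 0.24 with Nr1d1. Per2, with r = 0.62 with Cry2 and 0.26 with Dbp in all 17, had 0.83 and 0.70 in the other 16. All of these points share depth, the percentage of unmapped reads and the unshared share of each library, and the values are given as a description.

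**Figure D4:**
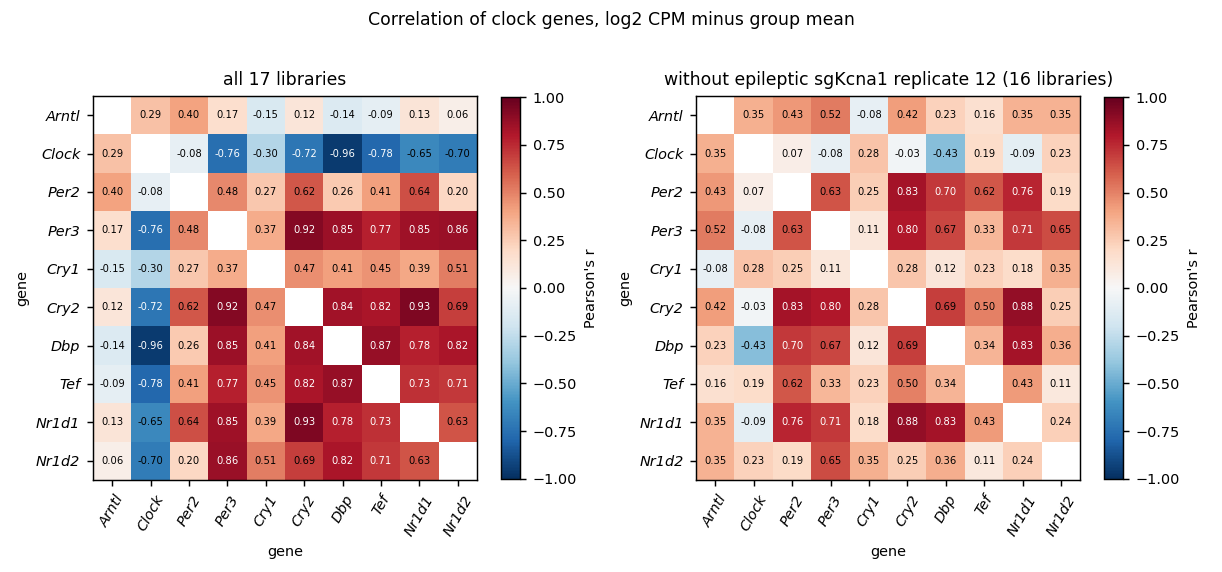
Pearson's r between each pair of the 10 clock genes (both axes) for log2 CPM minus the group mean, over 17 libraries at left and without epileptic sgKcna1 replicate 12 at right, with colour from -1 to 1. Clock is negative with most genes at left, down to -0.96 with Dbp, and from -0.43 with Dbp to 0.35 with Arntl at right, while Cry2 with Nr1d1 stays at 0.93 and 0.88.

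By the same measure over 15187 other genes with at least 1 CPM on average, the genes most like Arntl were Errfi1 (r = 0.78), Ccnt2 (0.78), Cttnbp2 (0.77), Ptpn12 (0.76) and A530054K11Rik (0.76), and the least like it with a symbol were Ncf4 (-0.77), Exosc5 (-0.74) and 0610011F06Rik (-0.73). Of the members, Per2 was the most like Arntl, at rank 977 with r = 0.40. For Dbp the most like were 1110014N23Rik, Rtcd1, Gde1, Ppp1ca and Timm23 (r = 0.99 each) and the least like Ubxn4, Celf1, Dek, Zfp91 and Ssbp3 (r from -0.98 to -0.97), with Tef the closest member at rank 694. Without replicate 12 the most like Dbp were Mppe1, Atg4d, Slmo1, Rnf146 and Gde1 (r from 0.94 to 0.95), Nr1d1 became the closest member at rank 273 (r = 0.83), and Ccnt2 stayed among the 5 most like Arntl (0.79).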

How the data were processed

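The authors aligned reads to mm10 with STAR 2.7 and deposited unnormalised counts of reads per gene, 1 list per library, with 3 count columns (unstranded and each strand) after 4 summary lines. The labels and the methods name different kits, and the strand columns were near equal (ratio 0.994 to 0.998), so the unstranded counts were used. Testing used edgeR 4.0.16 (R 4.3.3): filterByExpr by group, TMM scaling, 1 quasi-likelihood fit over all 17 libraries, two-sided F tests, and Benjamini-Hochberg adjustment over 17615 genes with a threshold of 0.05. Log2 CPM used a prior count of 2. No library was a copy of another in its group, and pairs across groups were not compared. The members and lists were chosen with earlier results of these data known. Named genes were the 10 members, Kcna1, and listed genes past the threshold or, with none past it, those of smallest p. Shared reads were the strand sum minus the unstranded count. The 640 overlapping genes had at least 200 reads by strand sum in every library and 10% to 90% of them shared. Gene lengths and the choice of the 640 overlapping genes came from GENCODE vM1 on mm9. Gene positions and the overlaps of Dbp with Sphk2 and Nr1d1 with Thra came from RefSeq GRCm38.p6. DESeq2 1.42.0, limma 3.58.1 voom weights, other scaling and filters, covariates and leaving out each library were alternatives. Floors of 3 reads cover counting error only. The fit was checked on simulated counts that held no shift common to a library and no outlying library, so the check does not cover those features. Permutation tests used 100000 resamples and SciPy 1.17.1.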

Additional observations from a re-analysis of the deposited data

Results flagged for a closer look

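A library was flagged where its gap to the nearest of its group, over the group's range, passed Dixon's 95% critical value. Of 30 combinations of clock gene and group tested, 3 were flagged, where chance flags about 1 in 20, and all 3 were epileptic sgKcna1 replicate 12. Clock was at 120.6 CPM in that library, where the next highest of its group was at 61.6. Cry2 was at 54.6 CPM, where the next lowest was at 93.5. Dbp was at 4.293 CPM, where the next lowest was at 72.6. The same library had 41.5% unmapped reads and the lowest unshared share, 40.5%, and the part of these in its values was not tested.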

How the results depend on the processing

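The comparisons are called the first (epileptic sgLacZ against control sgLacZ), the second (sgKcna1 against epileptic sgLacZ) and the third (sgKcna1 against control sgLacZ). No paired analysis was possible because the groups share no replicate numbers. With DESeq2, the calls were 3686 of all genes (main 1940) in the first comparison, 1 of the 12 glucocorticoid genes (main 0) in the first comparison, 143 of all genes (main 0) in the second comparison, 1 of the 12 glucocorticoid genes (main 0) in the second comparison and 39 of all genes (main 0) in the third comparison. With limma-voom and library quality weights, the calls were 7301 of all genes (main 1940) in the first comparison, 5 of the 10 clock genes (main 1) in the first comparison, 5 of the 18 other clock pathway genes (main 2) in the first comparison, 5 of the 12 glucocorticoid genes (main 0) in the first comparison, 12 of all genes (main 0) in the second comparison and 71 of all genes (main 0) in the third comparison. With the unmapped percentage as a covariate, the calls were 428 of all genes (main 1940) in the first comparison, 0 of the 18 other clock pathway genes (main 2) in the first comparison, 266 of all genes (main 0) in the third comparison and 1 of the 10 clock genes (main 0) in the third comparison. With sex, read from Xist, as a covariate, the calls were 516 of all genes (main 1940) in the first comparison, 0 of the 10 clock genes (main 1) in the first comparison and 0 of the 18 other clock pathway genes (main 2) in the first comparison. With only the 2 groups compared in the fit, the calls were 3045 of all genes (main 1940) in the first comparison, 3 of the 10 clock genes (main 1) in the first comparison and 1 of the 12 glucocorticoid genes (main 0) in the first comparison. With the unshared share as a covariate, chosen after seeing the data, the calls were 0 of all genes (main 1940) in the first comparison, 0 of the 10 clock genes (main 1) in the first comparison and 0 of the 18 other clock pathway genes (main 2) in the first comparison. With the sum of both strand counts, the calls were 0 of the 10 clock genes (main 1) in the first comparison. With RLE scaling in place of TMM, the calls were 1 of the 18 other clock pathway genes (main 2) in the first comparison. With no filter on low counts, the calls were 1 of the 18 other clock pathway genes (main 2) in the first comparison and 1 of all genes (main 0) in the second comparison. Without 1 library at a time, calls ran from 0 to 5526 of all genes in the first, 0 to 3 of the 10 clock genes in the first, 0 to 5 of the 18 other clock pathway genes in the first, 0 to 4 of the 12 glucocorticoid genes in the first, 0 to 1508 of all genes in the second, 0 to 3 of the 18 other clock pathway genes in the second, 0 to 2 of the 12 glucocorticoid genes in the second, 0 to 14 of all genes in the third and 0 to 1 of the 10 clock genes in the third. In the first comparison the all-gene count was 0 without sgLacZ replicate 4, 7 or 9 or control replicate 13, 14, 16 or 23, 519 without control 15, 952 without sgLacZ 6, 1026 without sgKcna1 10, 1126 without sgKcna1 3, 4777 without sgKcna1 12 and 5526 without sgLacZ 5. The clock gene count of 3 in the first comparison and of 1 in the third came without sgKcna1 12, as did the glucocorticoid count of 4 in the first, and the 1508 calls, 3 clock pathway calls and 2 glucocorticoid calls of the second without sgLacZ 5. With the unshared share as a covariate, chosen after seeing the data, the log2 fold change changed sign for Clock at 0.077, Per2 at -0.12, Per3 at -0.37, Cry1 at -0.0094, Cry2 at -0.30, Dbp at -0.33, Tef at -0.19, Nr1d1 at -0.10 and Nr1d2 at -0.20 in the first comparison, Clock at -0.067, Per2 at 0.025, Per3 at 0.23, Cry2 at 0.19, Dbp at 0.30, Tef at 0.049 and Nr1d1 at 0.18 in the second comparison and Clock at 0.010, Per2 at -0.094, Per3 at -0.14, Cry1 at -0.040, Cry2 at -0.11, Dbp at -0.031 and Nr1d2 at -0.016 in the third comparison. With the unmapped percentage as a covariate, the log2 fold change changed sign for Per3 at -0.025, Tef at -0.061 and Nr1d2 at -0.067 in the first comparison and Clock at -0.038, Per3 at 0.14, Cry2 at 0.11, Dbp at 0.24 and Tef at 0.031 in the second comparison. With the sum of both strand counts, the log2 fold change changed sign for Dbp at -0.084 in the first comparison and Arntl at -0.0013 and Dbp at 0.14 in the second comparison. With no filter on low counts, the log2 fold change changed sign for Nr1d2 at -0.0012 in the second comparison. With sex, read from Xist, as a covariate, the log2 fold change changed sign for Nr1d2 at -0.015 in the second comparison. With limma-voom and library quality weights, the log2 fold change changed sign for Tef at 0.025 in the third comparison. In the reads shared with the other strand, chosen after seeing the data, the log2 fold change changed sign for Dbp at -0.55 in the first comparison, Dbp at 0.40 in the second comparison and Dbp at -0.15 in the third comparison. Leaving out 1 library changed the sign for Arntl in the first (-0.0098 to 0.12), Nr1d2 in the second (-0.047 to 0.11), Per2 in the third (-0.0053 to 0.13), Cry1 in the third (-0.040 to 0.10) and Tef in the third (-0.072 to 0.036), ranges over all libraries left out. Without TMM scaling, r with Arntl turned to 0.16 for Dbp and 0.16 for Tef. Without epileptic sgKcna1 replicate 12, chosen after seeing the data, r with Arntl turned to 0.26 for Dbp and 0.19 for Tef. With the sum of both strand counts, r with Arntl turned to -0.085 for Nr1d1. Reads in the part that 2 genes share limit what the unstranded counts can say of Dbp and Nr1d1, and the shallowest library limits low genes. Apart from the settings that show it by their construction, the cause of these changes was not tested. With sex as a covariate, Nr1d1 missed the threshold in the first comparison at an adjusted p of 0.0501.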
